A study of Homo sapiens with 9 samples.

Results

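CSNK2B siRNA was compared with negative control siRNA in cells labelled NCI-H69, by setting the 3 libraries of the group si_CSNK2B against the 3 libraries of the group NC in the deposited gene expression table. These are 6 of the study's 9 libraries; the other 3 received P300 siRNA (group si_P300). Each library is bulk RNA taken 48 h after transfection from a biological replicate, read as single ends of 50 bases on a BGISEQ instrument, and no group carries another agent or a genetic change. Of 17529 genes in the table, 13129 had enough reads to be tested. A gene is called here when its adjusted p, from edgeR's quasi-likelihood test over all tested genes, is under 0.05, and levels are CPM, read counts scaled to the normalised library total. Changes written as rising or falling by a number are on the log2 scale, si_CSNK2B against NC. The siRNA sequences and protein levels were not analysed here.

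CSNK2B encodes the regulatory beta subunit of casein kinase 2 (CK2). CK2 is a serine/threonine kinase made of a pair of catalytic subunits, alpha or alpha prime, held together by a dimer of beta subunits, and the beta subunit steers which substrates the enzyme binds. The kinase is active without an upstream signal in most cells and phosphorylates proteins of transcription, chaperone function, translation, splicing, adhesion and survival signalling, and high CK2 activity is common in tumours.

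The libraries held 13111637 to 18286372 assigned reads. NCI-H69 is a small cell lung cancer line of neuroendocrine type that grows in suspension, and the markers in these libraries go against that label. Of 20 neuroendocrine genes listed, 15 were in the table and none was at 0 in all libraries, but 6 had at most 3 counts in every library, CHGA among them; the 15 together summed to 2.27 to 3.14 CPM in NC and 2.90 to 5.10 in si_CSNK2B. The 15 intestinal epithelial genes found in the table summed to 1279 to 1417 CPM in NC and 1327 to 1436 in si_CSNK2B. EPCAM gave the most, with 9448, 9875 and 10457 counts in the NC libraries, ahead of VIL1 with 3755, 3634 and 3831. In the same list ISX and CLDN3 had at most 1 count in every library and GPA33 had 2 to 11. Hepatocyte markers summed to 359 to 407 CPM in NC and 316 to 663 in si_CSNK2B. Breast luminal markers summed to 451 to 525 CPM in NC and 229 to 279 in si_CSNK2B. Leukocyte markers summed to 2257 to 2448 CPM in NC and 3605 to 3677 in si_CSNK2B through LYZ, and PTPRC, the defining marker of leukocytes, had 7 to 18 counts a library. The cells are therefore named only by their label. In bulk RNA, fewer cells of a type and less RNA per cell cannot be told apart.

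The targeted transcript differed little. CSNK2B stood at 193, 168 and 185 CPM in the NC libraries and 168, 149 and 139 CPM in the si_CSNK2B libraries. Each si_CSNK2B library lay below each NC library, and the highest of the former was within 1 CPM of the lowest of the latter. The fitted difference was -0.26 ± 0.10 (SE) on the log2 scale with a 95% interval of -0.49 to -0.03, and it was not called (edgeR adjusted p = 0.0732). An exact two-sided permutation test of the CPM values gave p = 0.1, the smallest that 3 against 3 allows. DESeq2 called the same transcript (adjusted p = 0.0444), as did edgeR without si_CSNK2B replicate 1 (adjusted p = 0.0347). In the P300 siRNA libraries CSNK2B was at 158, 148 and 163 CPM, and the direct difference between both siRNA groups was -0.04 with an interval of -0.27 to 0.19. Of the catalytic subunits, CSNK2A2 (alpha prime) fell, with 42.5, 42.5 and 46.7 CPM in the NC libraries and 24.7, 29.2 and 26.8 CPM in the si_CSNK2B libraries and a log2 fold change -0.71 ± 0.14 (SE), edgeR adjusted p = 0.00273. CSNK2A1 (alpha) had a log2 fold change of -0.36 and a call that was lost with library sizes alone (edgeR adjusted p = 0.0738), without NC replicate 1 (edgeR adjusted p = 0.0859), without NC replicate 3 (edgeR adjusted p = 0.0731) and without si_CSNK2B replicate 3 (edgeR adjusted p = 0.0822). The intronless copy CSNK2A3, whose reads can be shared with CSNK2A1, was called at -0.49 with all libraries, and it lost its call in 12 of 21 alternatives, among them library sizes alone, the stricter filter and 3 fits on FPKM, and without NC replicate 1 (edgeR adjusted p = 0.119), without NC replicate 2 (edgeR adjusted p = 0.077), without NC replicate 3 (edgeR adjusted p = 0.118), without si_CSNK2B replicate 1 (edgeR adjusted p = 0.0601) and without si_CSNK2B replicate 3 (edgeR adjusted p = 0.106).

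Against this small difference in the target, 4462 of 13129 genes, 34% of those tested, were called between si_CSNK2B and NC. Of these, 2124 genes (16.2%) were higher in si_CSNK2B and 2338 (17.8%) were lower; outside the lists of ATF4, immediate early, MAPK feedback and interferon genes 4314 were called (33.4%), with 2089 (16.2%) higher and 2225 (17.2%) lower, of 12925. For every gene list below, the shares over all genes to compare with are 16.2% higher and 17.8% lower. The 3 si_CSNK2B and 3 NC libraries did not overlap for 6957 genes (53%), and si_CSNK2B was the higher group for 3438 of them (26.2% of the genes tested). Most changes were modest, with a median absolute log2 fold change of 0.68 among genes called higher and 0.64 among those called lower, but 60 genes rose and 123 fell at least 4-fold. Without NC replicate 3 the calls numbered 2928, 1238 of them higher, and without NC replicate 1 the higher calls were 1324. Scaling by library sizes alone moved the median of all genes from 0.04 to 0.16 on the log2 scale and the share of calls that were higher from 47.6% to 66%, so a shift of this size in a whole list cannot be told from the choice of scaling; on the FPKM values, which are scaled by total reads, that share was 61.4%.

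Calls were unevenly spread over expression level, as the plot by quintile of level shows. Among the quintile of genes with the lowest mean level 15.4% were called higher and 5.94% lower, with a median log2 fold change of 0.39. The higher calls there, 403 genes, were 207 without NC replicate 1, 169 without NC replicate 3 and 207 without si_CSNK2B replicate 3. Among the quintile with the highest level 13.6% were called higher and 29.9% lower, with a median of -0.11, and its 356 higher calls were 233 without NC replicate 1 and 229 without NC replicate 3. With library sizes alone, the highest quintile was even, with 23% higher and 22.4% lower, and the lowest quintile still leaned upward, with 22.1% and 4.95%. The 445 tested genes with ZNF symbols, most of which encode zinc finger transcription factors, had 98 called higher (22%) and 35 called lower (7.87%), with a median of 0.21. Many of these genes lie on chromosome 19, where 21.3% of 1064 genes were called higher and 12.6% lower. Leaving out a library lowered the higher ZNF calls to 52 without NC replicate 1, 53 without NC replicate 3 and 63 without si_CSNK2B replicate 3, and the chromosome 19 calls to 137 without NC replicate 1 and 127 without NC replicate 3.

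**Figure D1:**
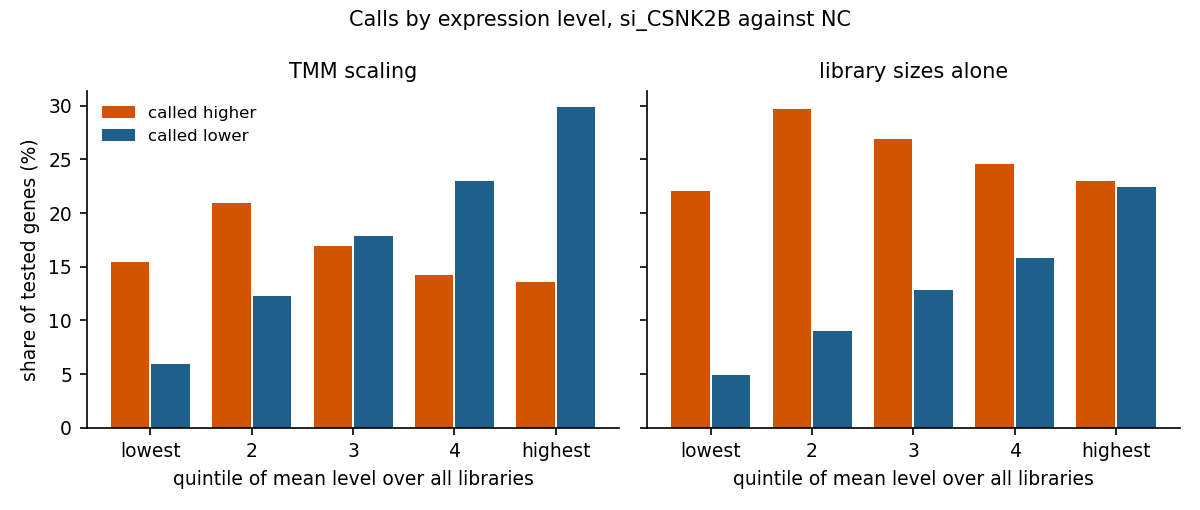
Share of tested genes (%, y axis) called higher (orange) or lower (blue) in si_CSNK2B than in NC, by quintile of mean level over all libraries (x axis), with the main scaling on the left and with library sizes alone on the right. Lower calls reach 29.9% in the highest quintile with the main scaling and 22.4% with library sizes alone.

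Cytosolic chaperones moved in opposite directions. HSPA6, HSPA1A and HSPA1B fell and HSPA8 and HSP90AB1 rose. The list of heat shock proteins and co-chaperones had 10 members called higher (25.6%) and 10 called lower (25.6%) of 39 tested. Over all genes these shares were 16.2% and 17.8%. The list median was 0.04, beside 0.04 over all genes. With 1 library left out the counts were 7 to 10 higher and 9 to 10 lower. To show promoters of members that moved in each direction, the 120 bases before the transcription start of 3 members that fell and 1 that rose are printed from RefSeq (GRCh38.p14), with pairs of inverted heat shock units in capitals. HSPA6 lies at chr1:161524420-161524539, plus strand, HSPA1A at chr6:31815423-31815542, plus strand, HSPA1B at chr6:31827618-31827737, plus strand, and HSPA8 at chr11:123062137-123062256, minus strand.
HSPA6: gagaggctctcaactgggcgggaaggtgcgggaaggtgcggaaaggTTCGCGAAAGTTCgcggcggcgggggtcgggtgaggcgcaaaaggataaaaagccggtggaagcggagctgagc
HSPA1A: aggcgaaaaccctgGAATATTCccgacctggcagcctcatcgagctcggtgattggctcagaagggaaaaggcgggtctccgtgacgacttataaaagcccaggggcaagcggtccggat
HSPA1B: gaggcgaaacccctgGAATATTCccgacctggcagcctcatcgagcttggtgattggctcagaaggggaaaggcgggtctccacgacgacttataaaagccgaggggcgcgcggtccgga
HSPA8: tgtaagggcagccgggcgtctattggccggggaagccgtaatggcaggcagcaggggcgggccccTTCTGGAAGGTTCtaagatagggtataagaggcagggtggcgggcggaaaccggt
A pair of units was written as GAANNTTC or TTCNNGAA, where N is any base; each form reads the same on both strands, and the 2 forms can overlap by 3 letters, as they do for HSPA6 and HSPA8. Such a pair occurred in the 250 bases before the start of 11.7% of all 27305 promoters in the table, which include genes not tested. Among tested genes it occurred in 9.22% of promoters of genes called higher, 8.35% of those called lower and 8.73% of those not called. In the chaperone list it occurred in 5 of 9 windows of genes that fell, 3 of 9 of genes that rose and 4 of 17 of those not called. The match is a description of these letters and no evidence of binding.

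HSPA6, a strictly stress-induced HSP70, was at 177, 220.4 and 276 CPM in the NC libraries and 1.57, 7.35 and 0.775 CPM in the si_CSNK2B libraries. It was far lower in every si_CSNK2B library than in any NC library (log2 fold change -6.18 ± 1.0 (SE), edgeR adjusted p = 0.000766). HSPA1B and HSPA1A encode the major inducible HSP70 from near-identical sequences, so the split of reads between them is uncertain. HSPA1B was at 2017, 2040 and 1986 CPM in the NC libraries and 259, 345 and 286 CPM in the si_CSNK2B libraries (log2 fold change -2.76 ± 0.46 (SE), edgeR adjusted p = 0.000961), and HSPA1A at 83.8, 114 and 89.95 CPM in the NC libraries and 5.60, 6.83 and 5.43 CPM in the si_CSNK2B libraries (log2 fold change -4.01 ± 0.45 (SE), edgeR adjusted p = 6.03e-05). The HSP40 co-chaperone DNAJB1 fell alongside, from 750.4 ± 33.8 CPM (SD, n = 3) in NC to 165 ± 29.02 CPM (SD, n = 3) in si_CSNK2B (log2 fold change -2.19 ± 0.29 (SE), edgeR adjusted p = 0.000222), and BAG3, which links HSP70 to selective autophagy, fell by 1.28 on the log2 scale. Conversely HSPA8, the constitutive HSC70, was at 726, 799 and 770.3 CPM in the NC libraries and 2273, 1779 and 1727 CPM in the si_CSNK2B libraries (log2 fold change 1.33 ± 0.13 (SE), edgeR adjusted p = 2.04e-05). Every si_CSNK2B library lay far above every NC library. HSPE1, the mitochondrial HSP10, rose from 218 ± 19.1 CPM (SD, n = 3) in NC to 468 ± 40.1 CPM (SD, n = 3) in si_CSNK2B (log2 fold change 1.1 ± 0.12 (SE), edgeR adjusted p = 4.96e-05). FKBP4, an HSP90 co-chaperone, rose by 0.67 and HSP90AB1, the constitutive cytosolic HSP90, by 0.51.

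The genes of redox defence and iron handling also divided. In the list of NRF2, heme and iron genes 10 of 34 rose (29.4%) and 9 fell (26.5%), beside 16.2% and 17.8% of all genes. The list median was -0.10, and the counts stayed at 7 to 9 and 9 to 10 on leaving out any 1 of the 6 libraries. HMOX1, the heme oxygenase that releases iron from heme, was at 1499, 1596 and 1119 CPM in the NC libraries and 71.97, 92.9 and 72.7 CPM in the si_CSNK2B libraries. The lowest NC library lay far above the highest si_CSNK2B library (log2 fold change -4.15 ± 0.39 (SE), edgeR adjusted p = 1.8e-05). TXNRD1, cytosolic thioredoxin reductase, was at 717, 799.7 and 698 CPM in the NC libraries and 199.7, 154 and 157 CPM in the si_CSNK2B libraries (log2 fold change -2.12 ± 0.18 (SE), edgeR adjusted p = 1.04e-05). FTH1, the ferritin heavy chain that stores iron, was at 3848, 3758 and 4074 CPM in the NC libraries and 1627, 1743 and 1501 CPM in the si_CSNK2B libraries, without overlap (log2 fold change -1.26 ± 0.13 (SE), edgeR adjusted p = 3.33e-05), and it had the largest drop in CPM of the genes called lower outside the ATF4, immediate early, MAPK feedback and interferon lists. SLC40A1 (ferroportin), the iron exporter, rose from 12.03 ± 0.35 CPM (SD, n = 3) in NC to 40.7 ± 9.40 CPM (SD, n = 3) in si_CSNK2B (log2 fold change 1.76 ± 0.20 (SE), edgeR adjusted p = 6e-05). TFRC, the transferrin receptor for iron uptake, was at 156, 153 and 133 CPM in the NC libraries and 264, 238 and 195 CPM in the si_CSNK2B libraries (log2 fold change 0.66 ± 0.12 (SE), edgeR adjusted p = 0.00192). AKR1B10, an aldo-keto reductase that is a known NRF2 target, rose by 1.40.

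**Figure D2:**
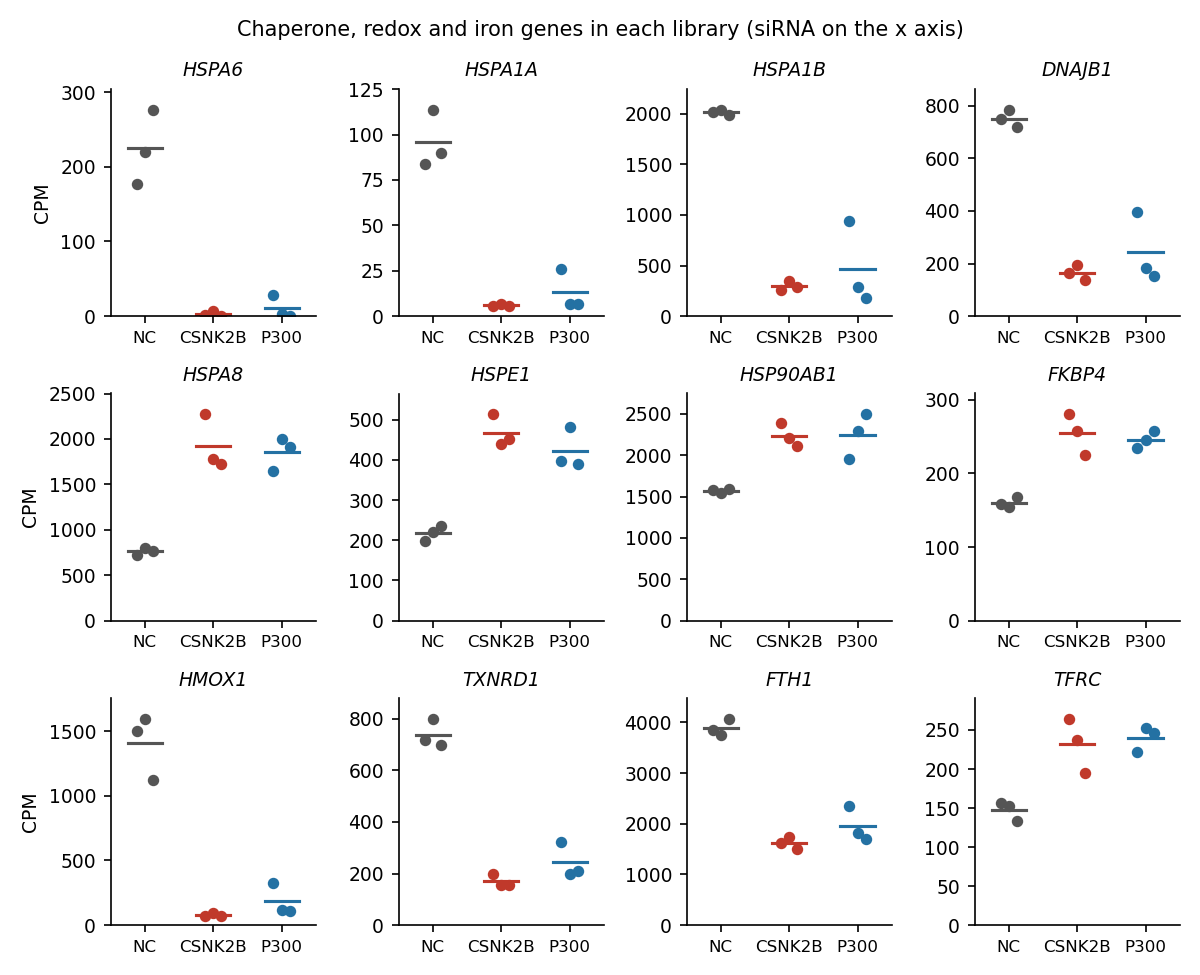
Normalised level (CPM, y axis from 0, own scale per gene) of 12 chaperone, redox and iron genes in each library, grouped by siRNA on the x axis (NC, si_CSNK2B, si_P300; 3 libraries each); points are libraries and bars are group means. HSPA6, HSPA1A, HSPA1B, DNAJB1, HMOX1, TXNRD1 and FTH1 are lower in every si_CSNK2B library than in every NC library, and HSPA8, HSPE1, HSP90AB1, FKBP4 and TFRC are higher.

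Many genes that hold cells to their matrix fell, and others did not pass the test. In the list of integrins and focal adhesion proteins 22 of 41 (53.7%, beside 17.8% of all genes) were called lower and 0 higher, with a median of -0.50; the lower calls stayed at 21 to 23 with any 1 library left out, and library sizes alone gave 0 higher and 20 lower. TNS4 (CTEN), a tensin that binds integrin tails, was at 951, 898 and 825 CPM in the NC libraries and 307, 289 and 280.2 CPM in the si_CSNK2B libraries. Every si_CSNK2B library lay far below every NC library (log2 fold change -1.61 ± 0.13 (SE), edgeR adjusted p = 6.74e-06). ZYX (zyxin), an adaptor between focal adhesions and actin, was at 258, 256 and 268 CPM in the NC libraries and 79.8, 101 and 86.5 CPM in the si_CSNK2B libraries (log2 fold change -1.55 ± 0.14 (SE), edgeR adjusted p = 1.2e-05). VCL (vinculin), which couples integrin complexes to actin filaments, was at 464, 470.2 and 446 CPM in the NC libraries and 238, 232 and 221 CPM in the si_CSNK2B libraries (log2 fold change -1.0 ± 0.10 (SE), edgeR adjusted p = 3.18e-05). Neither gene had overlapping groups.

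Regulators of the actin cytoskeleton followed, with 25 of 59 (42.4%) called lower and 5 called higher, or 8 higher and 18 lower with library sizes alone, and a median of -0.28. Lower calls ranged over 18 to 25 with 1 library left out, and higher calls were 3 without NC replicate 1 or 3 and 2 without NC replicate 2. EZR (ezrin), which ties actin to the apical membrane, fell from 1133 ± 23.04 CPM (SD, n = 3) in NC to 528 ± 31.4 CPM (SD, n = 3) in si_CSNK2B (log2 fold change -1.1 ± 0.09 (SE), edgeR adjusted p = 8.73e-06). ACTG1, cytoplasmic gamma actin, was at 3623, 3307 and 3361 CPM in the NC libraries and 1853, 2194 and 1706 CPM in the si_CSNK2B libraries (log2 fold change -0.84 ± 0.12 (SE), edgeR adjusted p = 0.000262). RHOF, a GTPase of filopodia, fell by 1.21 and CDC42EP1, a CDC42 effector, by 1.34 on the log2 scale. Against that direction GSN (gelsolin), which severs filaments, rose by 0.80 and MYL6, a myosin light chain, by 0.82. ACTB, beta actin, was called at -0.41 but not in 10 of 21 alternatives, among them library sizes alone and all 4 fits on FPKM and TPM, and not without NC replicate 1 (edgeR adjusted p = 0.118), without NC replicate 2 (edgeR adjusted p = 0.0575), without NC replicate 3 (edgeR adjusted p = 0.0932) and without si_CSNK2B replicate 3 (edgeR adjusted p = 0.123).

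Genes of the YAP and TEAD pathway had 17 of 32 (53.1%) called lower and 2 called higher, or 4 higher and 17 lower with library sizes alone, with a median of -0.54; 16 to 17 were lower with 1 library left out, and higher calls were 0 without NC replicate 1 and 1 without NC replicate 2 or 3 or si_CSNK2B replicate 2. YAP and TEAD proteins switch on growth and cytoskeletal genes when cells are spread on a stiff surface. AJUBA, a LIM protein of cell contacts that restrains LATS kinases, was at 409, 379 and 395 CPM in the NC libraries and 125, 145 and 150.3 CPM in the si_CSNK2B libraries (log2 fold change -1.49 ± 0.13 (SE), edgeR adjusted p = 1.46e-05). AMOTL2, a YAP-binding junction protein and YAP target, fell from 139 ± 3.85 CPM (SD, n = 3) in NC to 42.3 ± 10.4 CPM (SD, n = 3) in si_CSNK2B (log2 fold change -1.72 ± 0.21 (SE), edgeR adjusted p = 0.000119). PTPN14, another YAP partner, fell by 0.83. Tight and adherens junction genes were mixed, with 16 lower (36.4%) and 7 higher (15.9%) of 44, or 12 higher and 12 lower with library sizes alone. CLDN1 (claudin 1), a barrier-forming claudin, fell by 1.58, PARD3, a polarity protein, fell by 1.09, and GRHL3, an epithelial transcription factor, rose by 1.46. Their higher calls were 3 without NC replicate 1, 2 or 3 or si_CSNK2B replicate 3.

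Several growth factor receptors and ligands of EGFR fell. EGFR, the epidermal growth factor receptor, was at 192, 216 and 187 CPM in the NC libraries and 52.1, 54.6 and 49.2 CPM in the si_CSNK2B libraries (log2 fold change -1.93 ± 0.12 (SE), edgeR adjusted p = 1.4e-06). MET, the hepatocyte growth factor receptor, was at 164, 181 and 177 CPM in the NC libraries and 66.5, 71.2 and 58.1 CPM in the si_CSNK2B libraries (log2 fold change -1.42 ± 0.14 (SE), edgeR adjusted p = 2.5e-05). EPHA2, an ephrin receptor, was at 626, 579.7 and 547 CPM in the NC libraries and 155, 231 and 209.6 CPM in the si_CSNK2B libraries (log2 fold change -1.56 ± 0.15 (SE), edgeR adjusted p = 2.73e-05). Its promoter holds the cyclic AMP response element, as does that of MYL6, which rose. The element, searched as TGACGTCA, which reads the same on both strands, is shown in capitals in the 120 bases before each start (RefSeq, GRCh38.p14). EPHA2 lies at chr1:16156070-16156189, minus strand, and MYL6 at chr12:56158239-56158358, plus strand.
EPHA2: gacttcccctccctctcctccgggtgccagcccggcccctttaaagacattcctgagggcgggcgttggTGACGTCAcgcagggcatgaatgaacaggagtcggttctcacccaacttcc
MYL6: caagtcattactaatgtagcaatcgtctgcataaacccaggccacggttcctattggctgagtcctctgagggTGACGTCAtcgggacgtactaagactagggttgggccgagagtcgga
In 250 bases before the start, TGACGTCA occurred in 1.77% of all promoters, in 3.65% of those of genes called lower, in 2.04% of those of genes called higher and in 2.7% of those of genes not called, shares that were not tested.

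Across 28 receptor tyrosine kinases 4 were called higher (14.3%) and 6 lower (21.4%), near the 16.2% and 17.8% of all genes, and 5 higher and 3 lower with library sizes alone. FGFR3 and MERTK rose by 1.32 and 0.88. Without NC replicate 3 there were 2 higher calls and 3 lower, and without si_CSNK2B replicate 3 there were 2 higher. Among 20 ligands, ephrins and sheddases 7 fell (35%) and 3 rose (15%), beside 17.8% and 16.2% of all genes. HBEGF, a membrane-bound EGFR ligand, was at 139.7, 138 and 131 CPM in the NC libraries and 9.74, 15.2 and 10.1 CPM in the si_CSNK2B libraries (log2 fold change -3.55 ± 0.31 (SE), edgeR adjusted p = 1.23e-05). TGFA, another EGFR ligand, fell by 1.24, and so did LRIG1, a feedback inhibitor of EGFR, by 1.17. ERRFI1 (MIG6), which binds and inhibits the EGFR kinase, was at 1872, 1900 and 1531 CPM in the NC libraries and 202, 275 and 231 CPM in the si_CSNK2B libraries (log2 fold change -2.90 ± 0.45 (SE), edgeR adjusted p = 0.000574). EFNA3 and EFNA4, ephrin ligands, rose by 1.0 and 0.91.

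Secreted proteases and matrix genes went separate ways. MMP1, the interstitial collagenase, was at 454, 454 and 576 CPM in the NC libraries and 62.8, 58.2 and 48.5 CPM in the si_CSNK2B libraries (log2 fold change -3.13 ± 0.20 (SE), edgeR adjusted p = 1.4e-06). MMP10, stromelysin 2, fell by 3.56. TMPRSS2, a membrane serine protease, rose by 1.11. The list of matrix proteases and plasminogen genes had 8 lower (38.1%) and 4 higher (19%) of 21. Over all genes these shares were 17.8% and 16.2%. Library sizes alone gave 5 higher and 7 lower. Higher calls were 1 without NC replicate 2 and 2 without NC replicate 3 or si_CSNK2B replicate 2. Laminins, collagens and other matrix proteins leaned upward, with 12 of 36 (33.3%) higher and 5 lower, a median of 0.40, and 8 to 12 higher with 1 library left out. LAMA5, a laminin alpha chain of epithelial basement membranes, was at 124, 128 and 113 CPM in the NC libraries and 268, 311 and 375 CPM in the si_CSNK2B libraries (log2 fold change 1.38 ± 0.13 (SE), edgeR adjusted p = 1.55e-05). HSPG2 (perlecan), a basement membrane proteoglycan, was at 146, 134 and 122 CPM in the NC libraries and 295, 346 and 399 CPM in the si_CSNK2B libraries (log2 fold change 1.37 ± 0.13 (SE), edgeR adjusted p = 2.17e-05). COL27A1, a fibrillar collagen, rose by 1.20. LAMB3, a chain of laminin 332, which anchors epithelia, fell instead, at 409.7, 374 and 368 CPM in the NC libraries and 133, 168 and 161 CPM in the si_CSNK2B libraries (log2 fold change -1.32 ± 0.11 (SE), edgeR adjusted p = 8.65e-06). SDC4, a syndecan of focal adhesions, fell by 1.07.

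**Figure D3:**
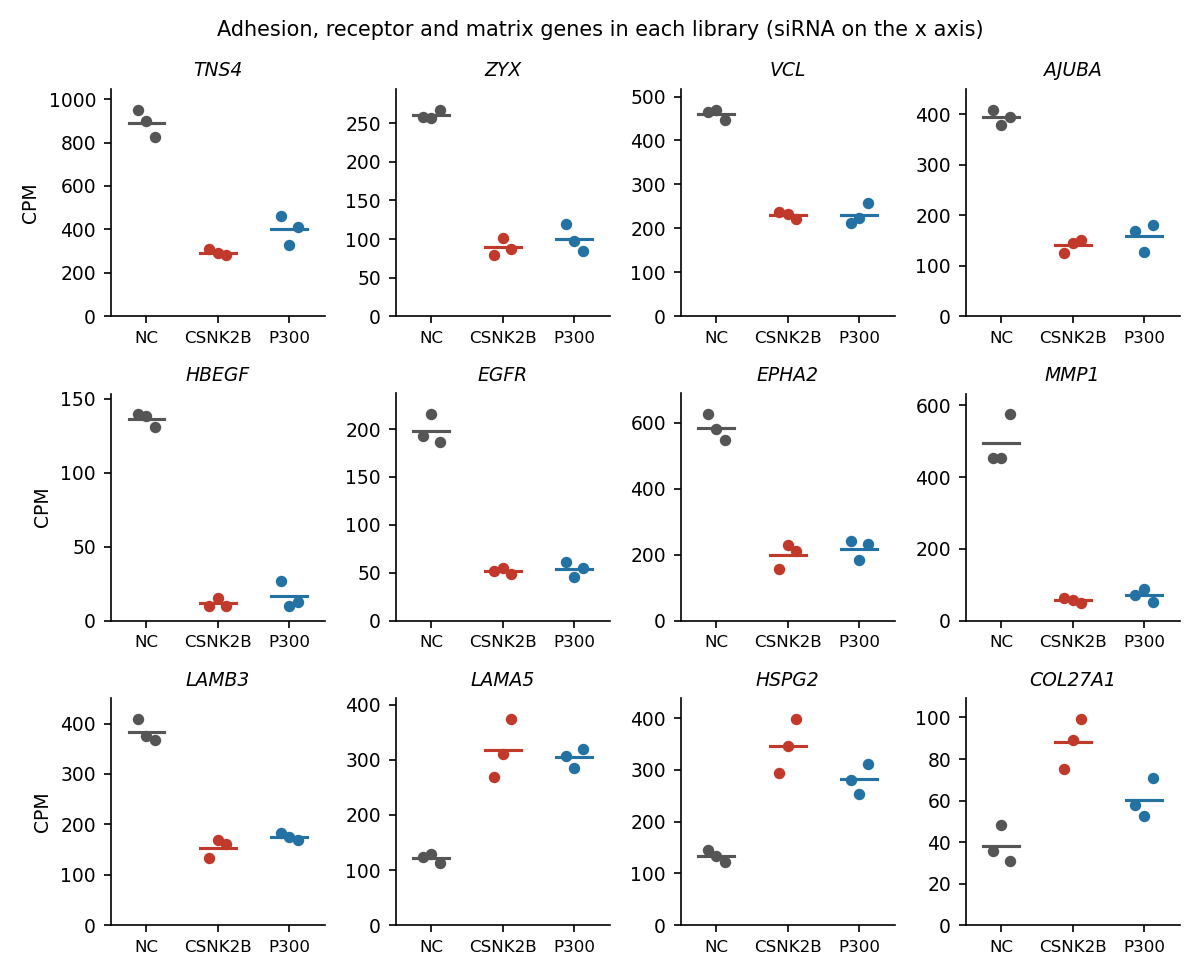
Normalised level (CPM, y axis from 0, own scale per gene) of 12 adhesion, receptor, protease and matrix genes in each library, grouped by siRNA on the x axis (3 libraries each); points are libraries and bars are group means. LAMA5, HSPG2 and COL27A1 are higher in every si_CSNK2B library than in every NC library, and the other 9 genes are lower.

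Autophagy genes were lower far more often than higher. Of 40 members of the autophagy machinery 19 (47.5%) were called lower and 2 higher, with a median of -0.28 and 15 to 18 lower calls with 1 library left out, and library sizes alone gave 4 higher and 16 lower; higher calls were 1 without NC replicate 1, 2 or 3. MAP1LC3B, the LC3 protein that coats autophagosomes, was at 336, 360.1 and 370.4 CPM in the NC libraries and 70.2, 79.9 and 72.4 CPM in the si_CSNK2B libraries (log2 fold change -2.26 ± 0.11 (SE), edgeR adjusted p = 3.58e-07). The cargo receptors CALCOCO2 (NDP52) and OPTN (optineurin) fell by 1.11 and 1.02. The kinase ULK1, which starts autophagosome formation, fell by 0.92. PIK3R4, the regulatory subunit of the class III phosphoinositide kinase, rose by 0.44. Genes of endosomal sorting and retromer had 15 lower (31.2%) and 2 higher (4.17%) of 48, or 5 higher and 10 lower with library sizes alone. Their lower calls were 8 without NC replicate 3 and higher calls at 0 without NC replicate 1, 2 or 3 and 1 without si_CSNK2B replicate 2 or 3. CHMP4C, an ESCRT-III subunit of the abscission checkpoint, fell from 84.4 ± 4.30 CPM (SD, n = 3) in NC to 26.3 ± 3.02 CPM (SD, n = 3) in si_CSNK2B (log2 fold change -1.68 ± 0.12 (SE), edgeR adjusted p = 3.61e-06), and the early endosome GTPase RAB5A fell by 0.97. The ubiquitin, E2 and cullin list as a whole had 15 lower (28.8%) and 7 higher (13.5%) of 52, or 14 higher and 11 lower with library sizes alone. Its lower calls were 9 without NC replicate 3, and its higher calls 4 without NC replicate 1. RBX1, the RING subunit of cullin ligases, and the ubiquitin-like modifier NEDD8 rose by 0.70 and 0.58. Of 42 proteasome genes 5 were called higher (11.9%) and 2 lower (4.76%), but library sizes alone gave 15 higher and 1 lower. NFE2L1, the transcription factor of proteasome genes, fell by 1.19. Higher proteasome calls were 3 without NC replicate 2, and lower ones 1 without NC replicate 1 or 3 or si_CSNK2B replicate 2 or 3 and 4 without si_CSNK2B replicate 1.

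Genes of protein synthesis and RNA turnover were lower more often than higher. Translation initiation and elongation factors had 20 of 58 (34.5%) lower and 4 higher, with a median of -0.17, but 12 higher and 12 lower with library sizes alone. Lower calls were 11 without NC replicate 3, 12 without si_CSNK2B replicate 2 and 13 without si_CSNK2B replicate 3; higher calls were 2 without NC replicate 1, 2 or 3. EIF1, which guards start codon choice, was at 1629, 1527 and 1717 CPM in the NC libraries and 712, 736 and 653 CPM in the si_CSNK2B libraries (log2 fold change -1.21 ± 0.10 (SE), edgeR adjusted p = 6.33e-06). EIF2S2, the beta subunit of EIF2 and a CK2 substrate, was at 683, 766 and 732 CPM in the NC libraries and 473, 398 and 405 CPM in the si_CSNK2B libraries (log2 fold change -0.77 ± 0.11 (SE), edgeR adjusted p = 0.000272). TPT1, an abundant growth-related protein whose transcript is controlled at translation, was at 3612, 3643 and 4085 CPM in the NC libraries and 2666, 2263 and 2248 CPM in the si_CSNK2B libraries (log2 fold change -0.66 ± 0.11 (SE), edgeR adjusted p = 0.00103). Within genes of mRNA decay 15 of 52 (28.8%) fell and 1 rose, or 4 higher and 11 lower with library sizes alone. The exosome subunits EXOSC8 (-0.96) and EXOSC5 (-0.67) and the ribonuclease ZC3H12A (-1.07) fell, while EXOSC4 rose by 0.76. Mediator, the bridge between transcription factors and RNA polymerase II, had 11 of 32 subunits (34.4%) lower and 3 higher, or 5 higher and 7 lower with library sizes alone, and its lower calls were 7 without NC replicate 3. MED10, a subunit of the middle module, fell from 85.2 ± 2.60 CPM (SD, n = 3) in NC to 45.8 ± 4.84 CPM (SD, n = 3) in si_CSNK2B (log2 fold change -0.90 ± 0.10 (SE), edgeR adjusted p = 8.13e-05), and MED31, of the same module, rose by 1.31. Core spliceosome genes were higher more often than lower, with 12 of 46 (26.1%) higher and 2 lower, 10 to 12 higher with 1 library left out, and 18 higher and 1 lower with library sizes alone. The 2 lower calls became 1 without NC replicate 1 or 2 or si_CSNK2B replicate 2 or 3 and 0 without NC replicate 3. SNRNP70, the U1 protein of 5′ splice sites, was at 191, 197 and 187 CPM in the NC libraries and 328, 350 and 358 CPM in the si_CSNK2B libraries (log2 fold change 0.85 ± 0.09 (SE), edgeR adjusted p = 3.93e-05). DDX23, a helicase of U5, and SNRPF, a ring protein of the small nuclear ribonucleoproteins, rose by 0.69 and 0.87.

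Nuclear-encoded subunits of oxidative phosphorylation rose or did not pass the test. Of 77 tested, 34 (44.2%) were called higher and 0 lower, with a median of 0.28, and the higher calls stayed at 28 to 35 with any 1 library left out. Library sizes alone gave 58 higher and 0 lower. By complex, 13 of 38 subunits of complex I, which takes electrons from NADH, were called higher, 1 of 4 of complex II, 7 of 9 of complex III, 4 of 10 of complex IV (cytochrome c oxidase) and 9 of 15 of the ATP synthase; the medians were 0.23, 0.23, 0.50, 0.29 and 0.44. COX7B, a small subunit of cytochrome c oxidase, was at 56.6, 57.3 and 63.5 CPM in the NC libraries and 148, 129 and 131 CPM in the si_CSNK2B libraries (log2 fold change 1.20 ± 0.11 (SE), edgeR adjusted p = 1.29e-05). NDUFB4, an accessory subunit of complex I, was at 76.7, 76.7 and 88.4 CPM in the NC libraries and 181, 157 and 181 CPM in the si_CSNK2B libraries (log2 fold change 1.1 ± 0.13 (SE), edgeR adjusted p = 8.93e-05). NDUFS5, also of complex I, rose by 0.98. None of these 3 genes had overlapping groups. Enzymes of the tricarboxylic acid cycle had 3 higher (9.38%) and 7 lower (21.9%) of 32, and with library sizes alone 11 higher and 3 lower, so their direction turned with the scaling. IDH1, the cytosolic isocitrate dehydrogenase, fell by 0.87, GOT1, an aspartate aminotransferase, by 1.16 and GLUD1, glutamate dehydrogenase, by 0.73. Lower calls of that list were 3 without NC replicate 1 or 3 or si_CSNK2B replicate 2 and 4 without NC replicate 2. Mitochondrial ribosomal proteins had 16 higher (20.8%) and 9 lower (11.7%) of 77 beside 16.2% and 17.8% of all genes, or 31 higher and 7 lower with library sizes alone. Their higher calls were 8 without NC replicate 1 or si_CSNK2B replicate 1, 6 without NC replicate 2 and 10 without NC replicate 3 and lower calls at 5 without NC replicate 3.

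**Figure D4:**
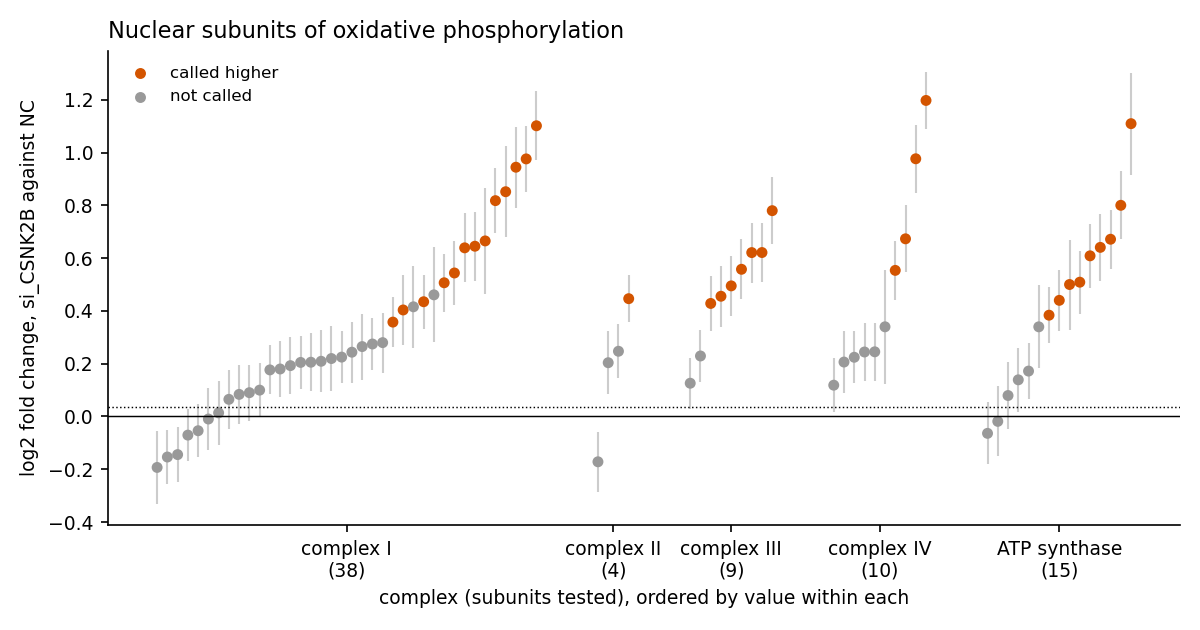
Log2 fold change (y axis) of each nuclear-encoded subunit between si_CSNK2B and NC, by complex and ordered by value within it (x axis; tested subunits in brackets), with the fit's standard error as bars; orange points are called higher, grey points are not called, and the dotted line is the median of all genes, 0.04. Complex III has 7 of 9 subunits called, and the highest values are those of COX7B at 1.20, ATP5MC1 at 1.11 and NDUFB4 at 1.1.

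Mitotic genes rose more often than they fell. Of 73 kinases, kinesins and kinetochore genes 27 (37%) were higher and 5 lower, or 37 higher and 3 lower with library sizes alone, with a median of 0.30. Higher calls were 15 without NC replicate 3 and 16 without si_CSNK2B replicate 1, and lower calls 3 without NC replicate 3 or si_CSNK2B replicate 2 or 3 and 8 without si_CSNK2B replicate 1. KIF20A, a kinesin of the central spindle, was at 54.1, 47.95 and 50.4 CPM in the NC libraries and 168, 113 and 102 CPM in the si_CSNK2B libraries (log2 fold change 1.33 ± 0.19 (SE), edgeR adjusted p = 0.000336). BUB1, a kinase of the spindle checkpoint, was at 98.3, 107 and 91.8 CPM in the NC libraries and 242, 172 and 152 CPM in the si_CSNK2B libraries (log2 fold change 0.93 ± 0.15 (SE), edgeR adjusted p = 0.000796). CCNF, the F-box cyclin, rose by 0.78. The members with the lowest p among those that fell act at the entry to mitosis. WEE1, which inhibits CDK1 and is removed through CK2 phosphorylation among other signals, was at 159.6, 161 and 126 CPM in the NC libraries and 58.03, 68.05 and 44.7 CPM in the si_CSNK2B libraries (log2 fold change -1.39 ± 0.30 (SE), edgeR adjusted p = 0.00393). PKMYT1, the membrane-bound kinase that also inhibits CDK1, fell by 0.81 and CDC25B, a phosphatase that activates it, by 0.57. Replication genes had 6 higher (12%) and 9 lower (18%) of 50, near or under the 16.2% and 17.8% of all genes, and 13 higher and 4 lower with library sizes alone, which turned the balance. CDC6, a licensing factor, fell by 1.02 and its antagonist in licensing, GMNN (geminin), rose by 0.85. Replication calls were 3 without NC replicate 2 and 11 without si_CSNK2B replicate 3 for the higher and 5 without NC replicate 1 or 3 or si_CSNK2B replicate 2 for the lower. Tubulins and microtubule genes had 11 of 41 higher (26.8%) and 4 lower, or 13 higher and 1 lower with library sizes alone. There were 9 to 10 higher calls on leaving out 1 library, and lower calls were 1 without NC replicate 1, 2 or 3 or si_CSNK2B replicate 3 and 2 without si_CSNK2B replicate 2. TUBB4B, a beta tubulin, was at 351, 317 and 381 CPM in the NC libraries and 941, 711 and 621 CPM in the si_CSNK2B libraries (log2 fold change 1.12 ± 0.16 (SE), edgeR adjusted p = 0.000312). TUBA1B and TUBB rose by 0.73 and 0.72; tubulin genes share sequence, so reads of 50 bases may be divided uncertainly among them.

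Metabolic genes split within their pathways. SLC2A1 (GLUT1), the main glucose transporter, was at 3117, 2601 and 2457 CPM in the NC libraries and 859, 1262 and 934 CPM in the si_CSNK2B libraries (log2 fold change -1.42 ± 0.24 (SE), edgeR adjusted p = 0.001). HK2, the hexokinase that traps glucose, fell from 303 ± 28.2 CPM (SD, n = 3) in NC to 126 ± 11.3 CPM (SD, n = 3) in si_CSNK2B (log2 fold change -1.26 ± 0.22 (SE), edgeR adjusted p = 0.00129). HKDC1, a related hexokinase, was at 252, 265 and 233 CPM in the NC libraries and 21.2, 27.6 and 19.5 CPM in the si_CSNK2B libraries (log2 fold change -3.46 ± 0.31 (SE), edgeR adjusted p = 1.48e-05). The transcripts of the transporter and both hexokinases were lower in every si_CSNK2B library than in any NC library. PFKM, muscle phosphofructokinase, rose by 0.43. LDHA, lactate dehydrogenase A, was called at 0.63 and not without NC replicate 3 (edgeR adjusted p = 0.0517), and GAPDH was called at 0.40 and not without NC replicate 2 (edgeR adjusted p = 0.0725) and without NC replicate 3 (edgeR adjusted p = 0.0836). In the whole glycolytic list 9 of 31 were higher (29%) and 6 lower (19.4%), beside 16.2% and 17.8% of all genes, or 13 higher and 5 lower with library sizes alone. Higher calls were 2 without NC replicate 2, 1 without NC replicate 3, 4 without si_CSNK2B replicate 1 and 5 without si_CSNK2B replicate 2. SCD, which desaturates fatty acids, and SREBF2, the regulator of cholesterol genes, fell by 0.63 and 0.54. The synthesis enzyme SQLE rose by 0.57. The sterol and fatty acid list had 8 higher (20.5%) and 6 lower (15.4%) of 39, near the 16.2% and 17.8% of all genes. Library sizes alone gave it 15 higher and 5 lower, and its higher and lower calls were 6 to 8 and 4 to 5 with 1 library left out. SMOX, spermine oxidase, was at 123, 114 and 122 CPM in the NC libraries and 31.8, 35.2 and 34.9 CPM in the si_CSNK2B libraries (log2 fold change -1.81 ± 0.10 (SE), edgeR adjusted p = 6.84e-07). ODC1, the first enzyme of polyamine synthesis, and AZIN1, which protects it, fell by 0.69 and 0.98, and AMD1, the next enzyme, rose by 0.74. GFPT1, the entry enzyme of hexosamine synthesis, fell from 609.7 ± 35.4 CPM (SD, n = 3) in NC to 175 ± 17.1 CPM (SD, n = 3) in si_CSNK2B (log2 fold change -1.80 ± 0.12 (SE), edgeR adjusted p = 2.65e-06). The glutathione transferases MGST3 and MGST2 rose by 1.0 and 1.08, whereas GSTM4 fell by 1.83. Of 43 detoxification genes 14 rose (32.6%) and 7 fell (16.3%), beside 16.2% and 17.8% of all genes. The share that fell was thus near that of all genes.

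Secreted proteins were among the genes with the largest rises. The pregnancy-specific glycoproteins, secreted relatives of CEACAM adhesion proteins that the placenta makes, share sequence, so their single values are uncertain; in the list of PSG and CEACAM genes 10 of 14 rose (71.4%) and 0 fell, with a median of 2.46 and 9 to 10 called with 1 library left out. PSG11 was at 13.5, 13.6 and 11.1 CPM in the NC libraries and 66.7, 94.05 and 55.2 CPM in the si_CSNK2B libraries, without overlap (log2 fold change 2.5 ± 0.26 (SE), edgeR adjusted p = 3.93e-05). MSMB, a secreted protein of mucous epithelia, was at 1.96, 1.66 and 2.10 CPM in the NC libraries and 16.97, 11.6 and 29.9 CPM in the si_CSNK2B libraries (log2 fold change 3.35 ± 0.57 (SE), edgeR adjusted p = 0.00108). CST1 (cystatin SN), a secreted cysteine protease inhibitor, was at 942, 899.8 and 853 CPM in the NC libraries and 2280, 3653 and 2278 CPM in the si_CSNK2B libraries (log2 fold change 1.61 ± 0.24 (SE), edgeR adjusted p = 0.000482). All 3 genes were higher in every si_CSNK2B library than in any NC library. LYZ, lysozyme, was at 2436, 2246 and 2428 CPM in the NC libraries and 3627, 3663 and 3593 CPM in the si_CSNK2B libraries (log2 fold change 0.61 ± 0.14 (SE), edgeR adjusted p = 0.0057). RNASE1, a secreted ribonuclease, rose by 2.34, from 1.46 ± 0.574 CPM (SD, n = 3) in NC to 7.41 ± 1.58 CPM (SD, n = 3) in si_CSNK2B. ESRRG, an orphan nuclear receptor, rose by 2.44. APOBEC2, a member of the cytidine deaminase family, was at 1.66, 0.889 and 0.699 CPM in the NC libraries and 11.8, 18.3 and 9.56 CPM in the si_CSNK2B libraries (log2 fold change 3.60 ± 0.40 (SE), edgeR adjusted p = 6.15e-05).

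The foregut and intestinal transcription factors were divided, with 7 higher (28%) and 8 lower (32%) of 25, beside 16.2% and 17.8% of all genes. GATA6, which specifies endoderm, was at 84.4, 74.7 and 77.8 CPM in the NC libraries and 174, 163 and 133 CPM in the si_CSNK2B libraries (log2 fold change 0.99 ± 0.15 (SE), edgeR adjusted p = 0.000552). GATA4 and GATA5 rose by 0.92 and 0.85. All 3 GATA genes were higher. KLF5, a factor of proliferating crypt cells, was at 618, 649 and 610.1 CPM in the NC libraries and 320.3, 356 and 251 CPM in the si_CSNK2B libraries (log2 fold change -1.02 ± 0.14 (SE), edgeR adjusted p = 0.000275). HOXB9, a homeobox factor of posterior identity, and FOXA3 fell by 1.61 and 0.81. In the Wnt list 7 were called higher (17.1%) and 11 lower (26.8%) of 41, beside 16.2% and 17.8% of all genes. Library sizes alone turned this to 10 higher and 8 lower, and lower calls were 7 without NC replicate 1. AXIN2, the feedback inhibitor that Wnt signalling induces, was at 281, 264 and 311 CPM in the NC libraries and 535, 577 and 511 CPM in the si_CSNK2B libraries (log2 fold change 0.92 ± 0.14 (SE), edgeR adjusted p = 0.000404). DKK1, a secreted inhibitor of Wnt receptors, and LGR4, an R-spondin receptor, rose by 1.51 and 0.86. AXIN1, the scaffold of beta-catenin destruction, and CSNK1A1, the kinase that primes beta-catenin for it, fell by 0.77 and 0.91. Clock genes had 10 lower (47.6%) and 0 higher of 21, beside 17.8% and 16.2% of all genes, with a median of -0.43. Lower calls were 8 to 10 with 1 library left out, and library sizes alone gave 1 higher and 8 lower. ARNTL (BMAL1), the clock activator, was at 21.3, 23.1 and 20.3 CPM in the NC libraries and 8.34, 9.58 and 6.27 CPM in the si_CSNK2B libraries (log2 fold change -1.42 ± 0.17 (SE), edgeR adjusted p = 0.000115). The clock repressors NR1D1 and NFIL3 fell by 1.47 and 1.57. S100P, a calcium-binding protein of epithelial tumours, was at 499.5, 484 and 559.7 CPM in the NC libraries and 67.2, 63.9 and 81.8 CPM in the si_CSNK2B libraries (log2 fold change -2.86 ± 0.20 (SE), edgeR adjusted p = 2.52e-06). S100A10, the annexin A2 partner, moved opposite, at 1696, 1635 and 1705 CPM in the NC libraries and 4481, 3002 and 4112 CPM in the si_CSNK2B libraries (log2 fold change 1.20 ± 0.15 (SE), edgeR adjusted p = 0.000123).

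**Figure D5:**
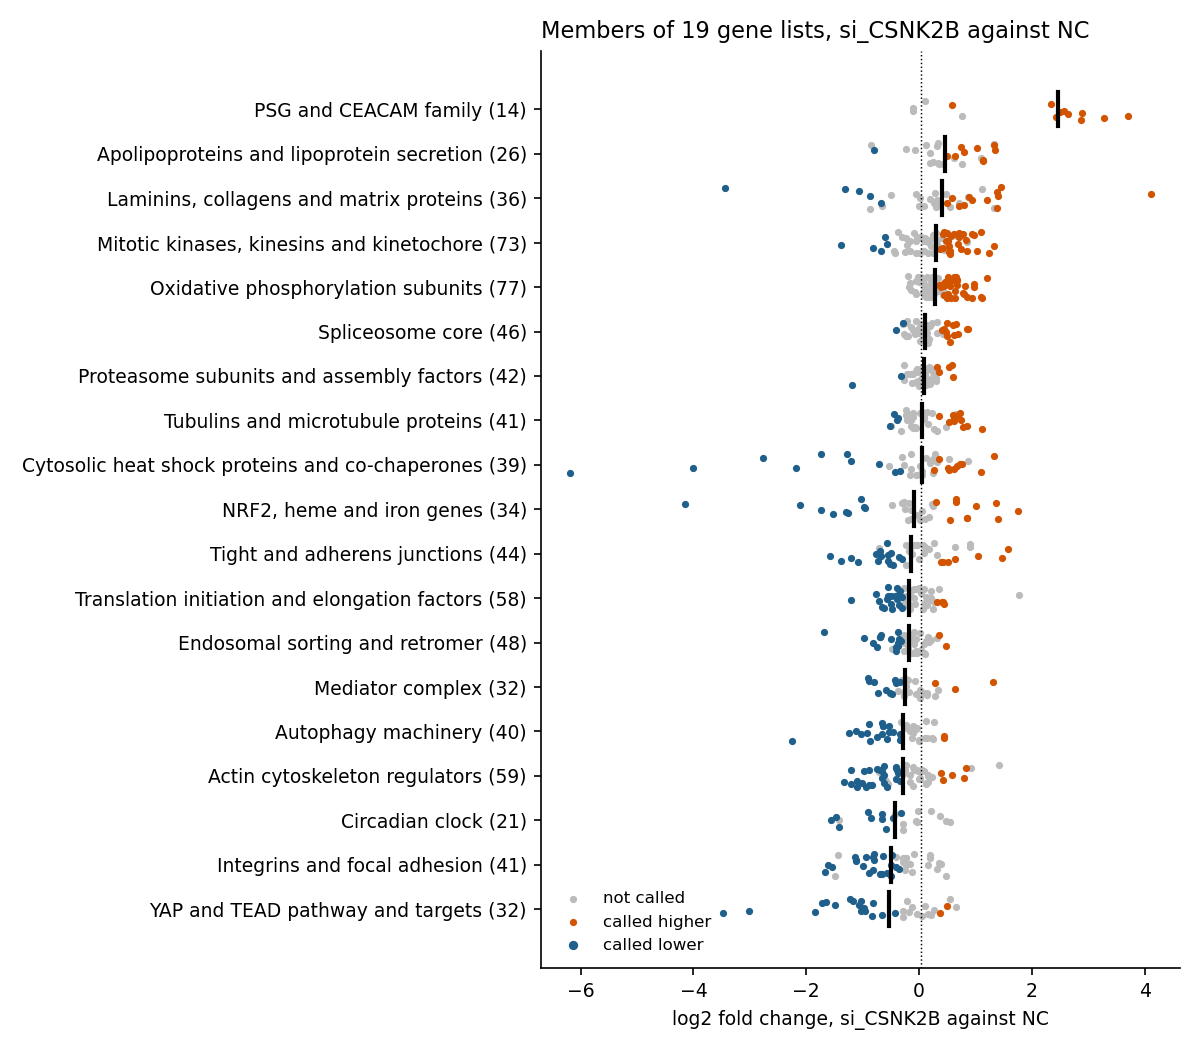
Log2 fold change between si_CSNK2B and NC (x axis) of each tested member of 19 gene lists (rows; number tested in brackets; vertical position within a row has no meaning), with called members in orange (higher) or blue (lower), others in grey, list medians as black bars and the median of all genes, 0.04, as a dotted line. Integrin genes have no orange point and oxidative phosphorylation genes no blue one, while the heat shock list reaches from -6.18 to 1.33.

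CK2 substrates and partners, as a list, stood near the background, with 6 higher (16.2%) and 6 lower (16.2%) of 37 and a median of -0.04; higher calls were 3 without NC replicate 2, and library sizes alone gave 10 higher and 6 lower. The lists of stress and signalling genes already known from this series were chosen with earlier results of these data known. Their distance from the background is therefore no test. Lower were 62 of 79 ATF4 and unfolded protein response genes (78.5%), 44 of 58 immediate early genes (75.9%) and 14 of 24 MAPK feedback genes (58.3%). The share over all genes was 17.8%. Of 57 interferon genes 24 were higher (42.1%), beside 16.2% of all genes. That count was 13 without NC replicate 1, 14 without NC replicate 2 and 12 without si_CSNK2B replicate 3. Library sizes alone gave 32 interferon genes higher and 2 lower.

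None of these differences was shown to be particular to the CSNK2B siRNA. The P300 siRNA libraries were compared with the same 3 NC libraries, which both comparisons share, and 28.3% of genes were called there. Side by side with the values above, the si_P300 log2 fold change was -4.40 for HSPA6, 1.28 for HSPA8, -2.93 for HMOX1, -1.15 for TNS4, -2.13 for MAP1LC3B, 1.08 for COX7B and 1.22 for KIF20A. Set directly against each other, si_CSNK2B and si_P300 had 0 called genes of 13129 (0%) by edgeR and 0 by limma-voom, and 8 by DESeq2; at an unadjusted p under 0.05 they numbered 661, 626 and 596, or 5.03% for edgeR, and the smallest edgeR adjusted p was 0.149. For the 43 genes named for the size of their change outside the stress lists, the direct difference lay between -1.78 and 0.74, and for 9 of them its unadjusted 95% interval left out 0. That interval was -0.22 to 0.33 for HSPA8 and -0.11 to 0.35 for COX7B, so with 3 libraries a group differences within these bounds remain compatible with the data. For TNS4 it was -0.73 to -0.18, with an edgeR adjusted p of 0.946.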

How the data were processed

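Counts, FPKM and TPM per gene and library came from 1 deposited table. Per the submitters' processing notes, HISAT and Bowtie2 were used with build GRCh38.p13; their roles, the counting program and its strand setting are not given in the sources used here. The deposited expected counts are estimated and not whole, and were rounded. The FPKM and TPM values, deposited by the authors, served as alternatives; 1 missing TPM value was set to 0. The authors' deposited signal columns (normalised read counts) and 12 group averages were not used.

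All 9 libraries entered 1 edgeR 4.0.16 fit in R 4.3.3 (filterByExpr with a minimum count of 10, TMM scaling, quasi-likelihood test, Benjamini-Hochberg adjustment over 13129 genes), so the groups share 1 estimate of the spread. The comparison was also run with DESeq2 1.42.0, limma 3.58.1 (voom, and trend on log2(FPKM + 1), log2(FPKM + 0.1) and log2(TPM + 1)), other scalings, filters, thresholds and libraries left out. The fitting steps were tested on simulated counts of 12847 genes, of which far fewer were changed than were called in the data. They recovered 31.3% of 67 genes changed 1.5-fold, 77.3% of 66 changed 2-fold and 95.2% of 63 changed 4-fold. Of the simulated calls at an adjusted p under 0.05, 7.04% were false. Intervals cover 95%.

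The gene lists (93 of them) and the rule for naming genes were chosen with earlier results of these data known. The rule names CSNK2B. Outside the lists of ATF4, immediate early, MAPK feedback and interferon genes it then names 12 called genes in each direction, ranked by the 95% interval bound nearest to 0, and 10 in each direction with the largest CPM difference, among genes with a mean count of at least 100 and no overlap between the groups. In each list it names at most 3 called members in each direction with the lowest p. DNAJB1 and ATP5MC1 were added after their values were seen. Of the gene IDs, 17464 of 17529 matched RefSeq. The labels do not say whether replicate numbers shared by the groups pair the libraries, and the main fit did not use them.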

Additional observations from a re-analysis of the deposited data

How the results depend on the processing

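Between si_CSNK2B and NC, 4462 genes were called, and 4314 outside the lists of ATF4, immediate early, MAPK feedback and interferon genes. Stricter thresholds gave 2525 and 2401 at an adjusted p under 0.01, and 1078 and 973 with an absolute log2 fold change of at least 1. Leaving out 1 library gave 2928 to 5166 and 2792 to 5004, the lowest without NC replicate 3; no other alternative moved either count by over 1.5 times. Between si_CSNK2B and si_P300 the count was 0 except for 8 by DESeq2, and 0 to 0 with 1 library left out. CSNK2B kept its sign throughout, with log2 fold changes of -0.34 to -0.20 on leaving out 1 library and -0.27 by DESeq2, which called it (adjusted p = 0.0444).

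With the replicate number as a block, 3828 genes were called (3676 outside those lists; 0 against si_P300), and CSNK2B was at -0.26 (adjusted p = 0.105). Deviations of same-numbered NC and si_CSNK2B libraries correlated at 0.000699, -0.0534 and -0.112. Those of differently numbered libraries correlated at -0.155 to 0.197. These values show no pairing by number, but with 3 libraries a group they cannot exclude one.

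No named gene changed sign under any alternative, but calls were lost. Of the 469 genes that the rule names besides CSNK2B, 55 lost their call without NC replicate 1, 61 without NC replicate 2 and 72 without NC replicate 3. Without si_CSNK2B replicate 1, 2 or 3 the losses were 27, 31 and 37. Depth was 13111637 to 18286372 reads a library, so 3 counts correspond to 0.164 to 0.229 CPM, for counting error only; single values of genes that share sequence stay uncertain. Without strand information, overlapping genes cannot be told apart.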
